A study of Mus musculus with 6 samples.

Results

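The MHC class I peptide loading complex was followed through 8 genes, chosen by name: Tap1, Tap2, Tapbp, Tapbpl, Erap1, Calr, Canx and Pdia3. All 8 were among the 24493 genes of the deposited table and all 8 passed the filter of at least 1 TPM in at least 2 libraries, as did 13720 genes in all. The data are bulk RNA sequencing of 6 libraries of tumor cells titled 6419c5, a single pancreatic tumor cell clone, obtained by sorting from subcutaneous tumors in C57BL/6 mice. The 2 GAFCP libraries came from tumors given a combination of gemcitabine and abraxane (chemotherapy), a CD40 agonist, and blockade of PD-1 and of CTLA-4. The 4 control libraries came from tumors without that treatment. All libraries therefore share the clone, the site and the sort, and the sources used here give no sort marker, doses, times, sex or age of the mice. Nothing in the labels ties each library to its own mouse, so p-values cover the spread among these libraries and that spread may be technical. Values are TPM (transcripts scaled to a fixed library total), which divide by transcript length and so allow levels of different genes to be set side by side. TPM keeps no sequencing depth, so the depth of each library is unknown and no counting interval is given.

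MHC class I molecules show short peptides from the cell's own proteins to CD8 T cells. Peptides cut by the proteasome are pumped from the cytosol into the endoplasmic reticulum by TAP, a transporter made of the TAP1 and TAP2 proteins. There ERAP1 trims them, while the chaperones calnexin and calreticulin and the thiol oxidoreductase ERp57, the product of Pdia3, help the class I heavy chain fold and bind its light chain. Tapasin, the product of Tapbp, bridges class I to TAP and favors tightly binding peptides, and the related TAPBPR, the product of Tapbpl, edits peptides outside the complex. TAP and tapasin genes are known to respond to interferon gamma, whereas calreticulin, calnexin and ERp57 serve glycoprotein folding in nearly every cell.

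The GAFCP libraries held more RNA of the transporter, of both peptide editors and of the trimming enzyme, and little more or no more RNA of the folding chaperones. Tap1 was 4.98-fold higher by mean TPM, Tap2 3.24-fold, Tapbpl 2.67-fold, Tapbp 2.25-fold and Erap1 2.22-fold, while Calr was 1.14-fold higher. Canx and Pdia3 did not pass the test. In all 6 of the 8 members were higher and 0 lower at a limma adjusted p under 0.05 over all genes tested, where 19.0% of all tested genes were called higher, 28.5% lower and 47.5% in either direction. With median-of-ratios scaling the calls over all genes were 3449 higher and 3425 lower, in place of 2606 higher and 3909 lower. A called increase of at least 1 on the log2 scale was found for 5 of the 8 members and for 4.69% of all tested genes. The median log2 change was 1.14 over the members and -0.07 over all genes tested. These log2 changes are of TPM + 1, GAFCP mean minus control mean. Macrophage and monocyte markers were also higher. The summed TPM of the 14 listed markers ran from 6070 to 6147 in the GAFCP libraries and from 1566 to 1677 in the controls. Their part in the changes of the members was not tested. In bulk libraries more or fewer cells of a type and more or less RNA per cell cannot be told apart.

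**Figure D1:**
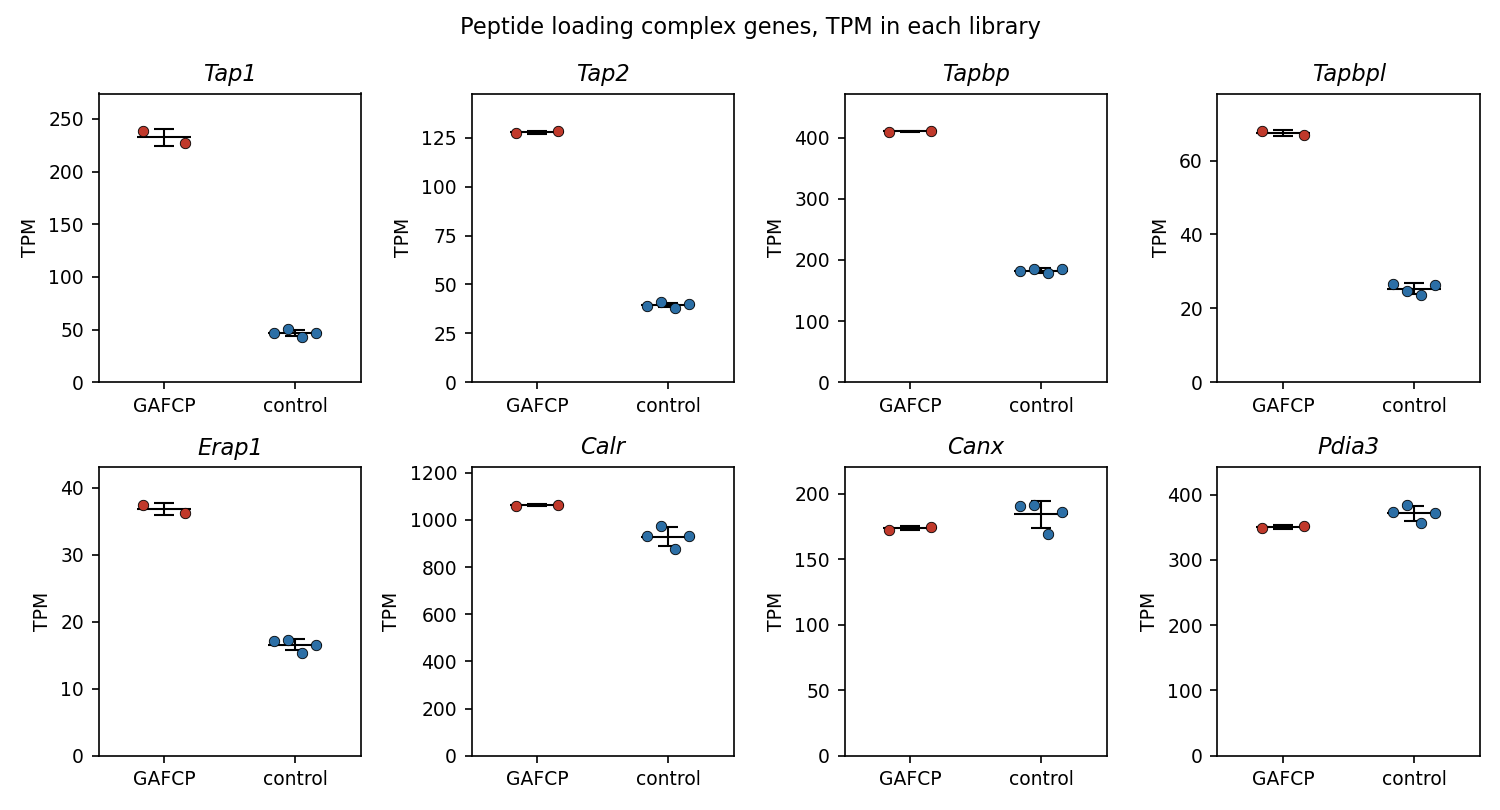
TPM (vertical axes, each starting at 0) of the 8 genes in the 2 GAFCP libraries (red) and the 4 control libraries (blue). Points are libraries, the long bar is the group mean and the whiskers are 1 SD. The groups overlap only for Canx.

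Tap1 encodes one chain of the peptide transporter (chromosome 17, 34187553 to 34197225, plus strand, GRCm38, the assembly also called mm10). It measured 238 and 227 TPM in GAFCP libraries 1 and 2, against 46.3, 50.4, 43.0 and 47.1 TPM in control libraries 1 to 4. The lowest GAFCP library stood far above the highest control. The means were 232.6 ± 8.06 TPM in GAFCP libraries (SD, n = 2) and 46.7 ± 3.04 TPM in control libraries (SD, n = 4). The log2 change was 2.29 ± 0.06 (SE; limma adjusted p = 9.9e-08), larger than that of 99.2% of all tested genes.

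Tap2, the partner chain (chromosome 17, 34203527 to 34216321, plus strand), measured 127 and 128 TPM in the GAFCP libraries, against 38.8, 41.1, 38.2 and 39.8 TPM in the controls. The groups did not overlap here either, and the libraries of each group lay close together. The log2 change was 1.67 ± 0.04 (SE; limma adjusted p = 8.4e-08). In GENCODE M21, 18.5% of its exon bases are shared with Gm15821 and Gm20496 on the opposite strand. The transporter needs both chains, and their RNAs did not change by the same factor. The TPM ratio of Tap1 to Tap2 was 1.87 and 1.77 in the GAFCP libraries, against 1.19, 1.23, 1.13 and 1.18 in the controls. Tap1 was thus the more abundant of the pair in every library, by a wider margin in both GAFCP libraries.

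The start of Tap1 lies back to back with that of Psmb9, an immunoproteasome subunit that is read from the opposite strand. The 225 bases between the RefSeq starts of the genes are shown because both genes rose and this stretch is, by those starts, upstream of each. In GENCODE M21 Psmb9 reaches 34187764, past the end of this stretch. The stretch runs 5′ to 3′ on the plus strand at chr17:34187331-34187555 (RefSeq, GRCm38.p6) and ends just before the RefSeq first base of Tap1. It has in capitals its match to the GC box GGGCGG, here on the opposite strand, a box present on either strand in 35.7% of RefSeq promoters.
Tap1 upstream: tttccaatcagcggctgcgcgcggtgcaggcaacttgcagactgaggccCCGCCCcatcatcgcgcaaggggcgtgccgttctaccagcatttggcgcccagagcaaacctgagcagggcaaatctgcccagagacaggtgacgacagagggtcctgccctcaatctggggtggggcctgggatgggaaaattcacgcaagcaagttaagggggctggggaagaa
Psmb9 measured 361 and 348 TPM in the GAFCP libraries, against 82.0, 88.8, 87.1 and 85.6 TPM in the controls, which is 2.03 ± 0.04 higher on the log2 scale (SE; limma adjusted p = 3.6e-08). The ratio of Tap1 to Psmb9 was 0.661 and 0.652 in the GAFCP libraries, against 0.564, 0.567, 0.494 and 0.550 in the controls. In GENCODE M21 the exons of these genes overlap by 212 bases, 3.87% of the exon bases of Tap1. The sources used here give no strand setting of the counting, so reads from that overlap cannot be assigned to either gene.

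Tap1, Psmb8, Tap2 and Psmb9 sit side by side in the class II region of the MHC. Within 100 kb on either side of the Tap1 start the table holds 8 other genes that were tested, and all 8 were higher in the GAFCP libraries, where 19.0% of all tested genes were. They were Psmb9, Psmb8, Brd2 and the class II genes H2-DMa, H2-DMb1, H2-DMb2, H2-Ab1 and H2-Aa, a window chosen after the values were known. Brd2, a chromatin reader that is not an antigen presentation gene, had the smallest of these log2 changes at 0.54, and H2-Aa, a class II chain, the largest at 3.53. Psmb8, which lies between Tap1 and Tap2, changed by 1.94. H2-DMb2 measured 4.52 and 5.80 TPM in the GAFCP libraries, against 0.139, 0.568, 0.228 and 0.469 TPM in the controls. It passed the filter only through the GAFCP libraries, where it was high, so its call adds no independent support to the count of 8. H2-Oa and H2-Ob in the same window averaged 0.160 and 0.194 TPM in GAFCP libraries and 0.160 and 0.0825 TPM in control libraries and were too low to test.

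**Figure D2:**
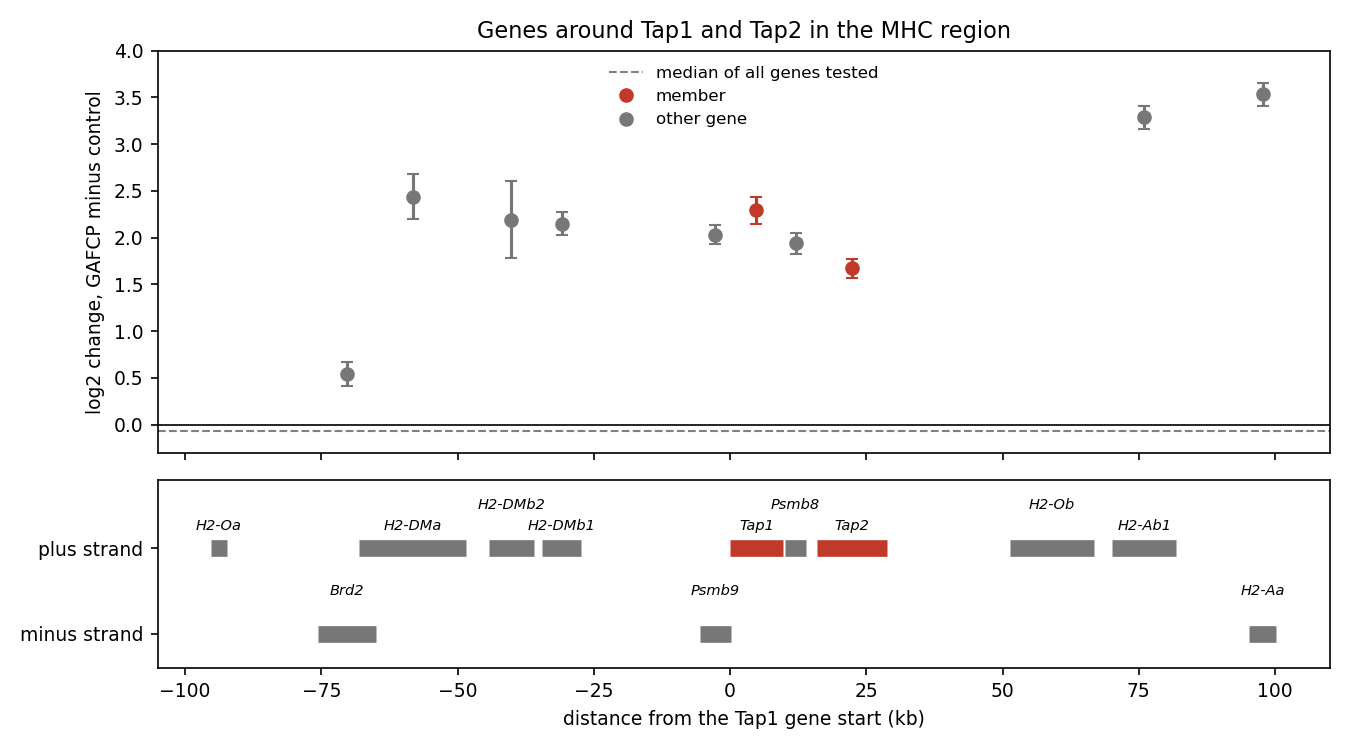
Log2 change of TPM + 1, GAFCP minus control, of tested genes within 100 kb of the Tap1 start (upper panel, whiskers are 95% intervals), over a map of gene extents by strand (lower panel, distance from the Tap1 start in kb). Members are red. Tap1 at 2.29 and Tap2 at 1.67 lie between Brd2 at 0.54 and H2-Aa at 3.53.

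Tapbp, the tapasin gene (chromosome 17, 33915899 to 33929292, plus strand), measured 410.1 and 411 TPM in the GAFCP libraries, against 182, 185, 178 and 186 TPM in the controls. Among the members it had the smallest relative spread between controls, with a coefficient of variation of 1.85% where the median of all tested genes was 6.89%. Its log2 change was 1.16 ± 0.03 (SE; limma adjusted p = 1.1e-07). In GENCODE M21, 29.0% of its exon bases are shared with other genes, Gm19412 on the minus strand and Zbtb22 on the plus strand. Zbtb22, the next gene along, averaged 20.4 ± 0.383 TPM in GAFCP libraries and 23.8 ± 1.84 TPM in control libraries (SD; limma adjusted p = 0.050), so its level was well under that of Tapbp in both groups.

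Tapbpl, which encodes the second editor TAPBPR (chromosome 6, 125223933 to 125231860, minus strand), measured 68.0 and 66.9 TPM in the GAFCP libraries, against 26.6, 24.8, 23.5 and 26.3 TPM in the controls. Its log2 change was 1.38 ± 0.06 (SE; limma adjusted p = 1.3e-06), beside 1.16 for Tapbp. The ratio of Tapbp to Tapbpl was 6.03 and 6.15 in the GAFCP libraries, against 6.84, 7.46, 7.59 and 7.07 in the controls. Tapasin RNA therefore stayed several-fold above TAPBPR RNA in every library, and the ratio was lower in both GAFCP libraries than in each control. Tapbpl lies inside the extent of Vamp1 on the opposite strand but shares 0 exon bases with it.

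Erap1, the aminopeptidase that trims peptides in the endoplasmic reticulum (chromosome 13, 74639568 to 74693201, plus strand), was the least abundant member in both groups. It measured 37.5 and 36.2 TPM in the GAFCP libraries, against 17.1, 17.2, 15.4 and 16.5 TPM in the controls, with no overlap. The log2 change was 1.11 ± 0.06 (SE; limma adjusted p = 4.9e-06). Its neighbour Cast, on the opposite strand, shares 11.5% of its exon bases and had a log2 change of 0.22. The core of the interferon-stimulated response element, searched on both strands as GAAA and GAAA with any 2 bases between, was found in the promoter of Erap1 and in that of no other member with a promoter in the RefSeq table (Tap1, Tapbp, Calr, Canx and Pdia3). This core is present in 3.44% of the 32851 RefSeq promoters of 300 bases. The promoters sit at RefSeq starts, which are not always the GENCODE M21 starts given here. For Tapbp the RefSeq start is 33919478 against 33915899 in GENCODE, and for Erap1 74639853 against 74639568. The 30 bases around the RefSeq start of Erap1 (chr13:74639838-74639867, plus strand, GRCm38.p6) are shown with the match in capitals, which is on the opposite strand.
Erap1 start: tccaccttcacTTTCACTTTCggtcccggg
The GAS element searched as TTCNNNGAA (8.30% of promoters) and the kappaB site searched as GGGA and TTTCC with any 1 base between (0.411%) were in none of the 6 members' promoters. For comparison, the promoter of B2m held both the response element core and the kappaB letters, and that of Psmb8 the GAS letters. A match is a description of letters in this window and no more.

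Calreticulin, the product of Calr (chromosome 8, 84841850 to 84846934, minus strand), is a soluble lectin chaperone that also stores calcium. Calr was the most abundant member in every library, at 1061 and 1065 TPM in the GAFCP libraries, against 932, 974, 878 and 931 TPM in the controls. Both GAFCP libraries were above all controls, by a margin much smaller than for the 5 genes above. The log2 change was 0.19 ± 0.04 (SE; limma adjusted p = 0.0061), and 77.9% of all tested genes had a lower one. The call was lost with quantile normalization (log2 change 0.08, adjusted p = 0.12) and without GAFCP library 2 (log2 change 0.19, adjusted p = 0.053).

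Calnexin, the product of Canx (chromosome 11, 50293961 to 50325673, minus strand), is the membrane-bound relative of calreticulin. Canx measured 173 and 175 TPM in the GAFCP libraries, against 191, 192, 169 and 186 TPM in the controls, where only control library 3 was below the GAFCP libraries. The log2 change of -0.08, with a 95% interval from -0.21 to 0.04, did not pass (limma adjusted p = 0.23). The ratio of Calr to Canx was 6.15 and 6.09 in the GAFCP libraries, against 4.89, 5.08, 5.18 and 4.998 in the controls, so the soluble chaperone gained on the membrane-bound one in both GAFCP libraries.

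Pdia3, which encodes ERp57, the oxidoreductase that pairs with tapasin (chromosome 2, 121413775 to 121438687, plus strand), measured 349 and 353 TPM in the GAFCP libraries, against 374, 385, 357 and 372 TPM in the controls. Both GAFCP libraries were below every control, yet the log2 change of -0.08, with a 95% interval from -0.17 to 0.00, did not pass (limma adjusted p = 0.094). The groups were free of overlap for 7 of the 8 members, as for 61.6% of all tested genes; 6 were higher without overlap (24.7% of all tested genes) and 1, Pdia3, lower (36.9%). Without control library 3, both genes passed as lower, Canx with a log2 change of -0.12 (adjusted p = 0.011) and Pdia3 with one of -0.10 (adjusted p = 0.023). The ratio of Pdia3 to Tapbp turned over: it was 0.850 and 0.858 in the GAFCP libraries, against 2.05, 2.08, 2.004 and 2.003 in the controls.

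The promoters of Calr and Canx share a motif that was not found in those of Tap1, Tapbp, Erap1 and Pdia3. The endoplasmic reticulum stress response element, which is bound by factors of the unfolded protein response, was searched on both strands as CCAAT and CCACG with any 9 bases between. It was found in 39 of the 32851 RefSeq promoters (0.119%) among them those of Calr, Canx and the chaperone gene Hspa5. Its first letters are the CCAAT box, which alone is in 37.4% of promoters. Tap2 and Tapbpl had no promoter to search. The 100 bases around the element are shown, since no other motif searched was found in Calr and Canx alone among the members searched. They are read on the minus strand, the strand of both genes (GRCm38.p6), at chr8:84847022-84847121 for Calr and chr11:50325764-50325863 for Canx, with the element in capitals, and in Calr it is in the reverse orientation.
Calr upstream: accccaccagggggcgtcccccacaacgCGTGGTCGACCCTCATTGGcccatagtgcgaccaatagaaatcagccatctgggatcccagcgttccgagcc
Canx upstream: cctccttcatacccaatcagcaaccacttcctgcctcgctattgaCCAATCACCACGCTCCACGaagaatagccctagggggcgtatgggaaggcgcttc
Hspa5, which encodes the chaperone BiP, measured 558 and 562 TPM in the GAFCP libraries, against 457, 459.6, 409.6 and 446 TPM in the controls (log2 change 0.34 ± 0.05, SE; limma adjusted p = 8.9e-04). The log2 changes of the 3 genes with this element thus ran from -0.08 for Canx to 0.34 for Hspa5.

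**Figure D3:**
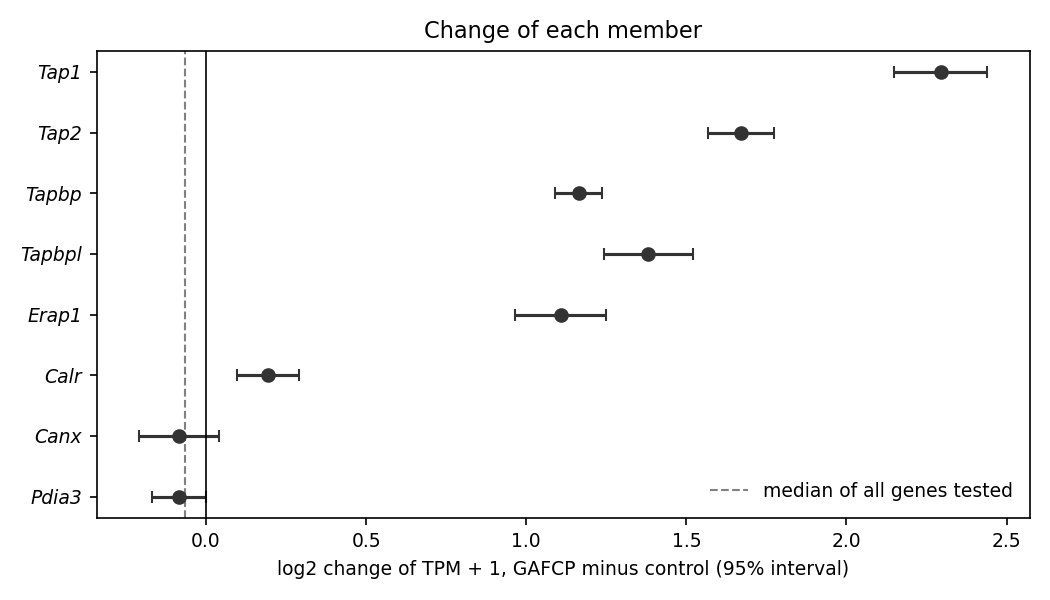
Log2 change of TPM + 1, GAFCP minus control (horizontal axis), of the 8 genes, with 95% intervals from the limma fit. Tap1 to Erap1 lie between 1.11 and 2.29, Calr at 0.19, and the intervals of Canx and Pdia3 reach 0. The dashed line at -0.07 is the median of all genes tested.

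The order of the members by level differed between the groups. In the GAFCP libraries it was Calr, Tapbp, Pdia3, Tap1, Canx, Tap2, Tapbpl and Erap1, and no neighbours in this order overlapped between libraries. In the controls it was Calr, Pdia3, Canx, Tapbp, Tap1, Tap2, Tapbpl and Erap1, with means of 929, 372, 185, 183, 46.7, 39.5, 25.3 and 16.6 TPM, and only Canx and Tapbp overlapped. Tapbp thus stood above Pdia3, and Tap1 above Canx, in the GAFCP libraries alone. Tap1, Tap2, Tapbp, Tapbpl and Erap1 together made up 35.8% and 35.3% of the summed TPM of the members in the GAFCP libraries, against 17.2%, 17.0%, 17.5% and 17.5% in the controls. The sum of all 8 was 2463 and 2462 TPM in the GAFCP libraries, against 1807, 1869, 1703 and 1805 TPM in the controls. Control library 3 was the lowest control for all 8 members, as it was for 56.6% of all tested genes.

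**Figure D4:**
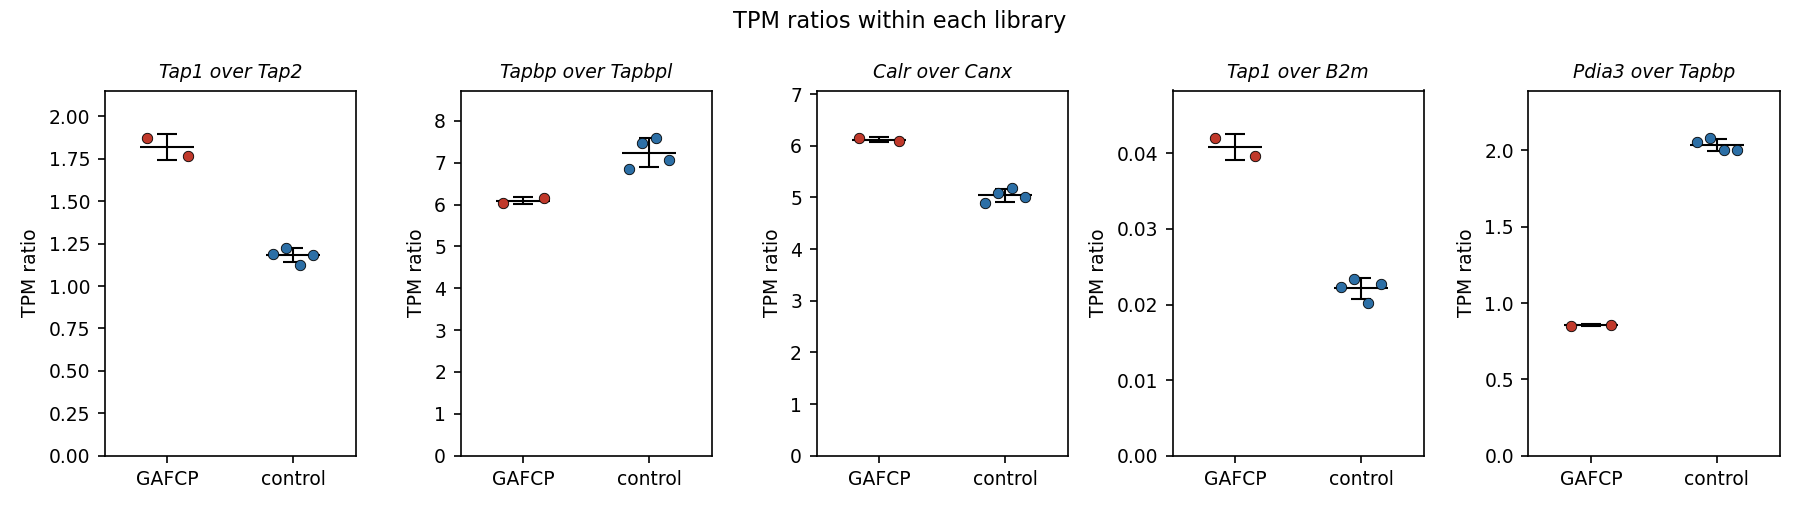
TPM ratios (vertical axes, each starting at 0) computed within each GAFCP library (red, 2 libraries) and each control library (blue, 4 libraries), with group means and 1 SD. Tap1 over Tap2, Calr over Canx and Tap1 over B2m were higher in both GAFCP libraries than in every control, and Tapbp over Tapbpl and Pdia3 over Tapbp were lower.

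The complex serves class I chains. Of 12 class I chain genes tested, 11 were higher and 0 lower in the GAFCP libraries, with a median log2 change of 1.46. Over all tested genes 19.0% were higher and 28.5% lower. B2m, the light chain, measured 5672 and 5724 TPM in the GAFCP libraries, against 2071, 2157, 2126 and 2078 TPM in the controls (log2 change 1.43). The heavy chain genes H2-K1 and H2-D1 changed by 1.44 and 1.38 and the nonclassical H2-T23 by 1.76. H2-Q6 was listed at 0 in every control and at 7.96 and 21.6 TPM in the GAFCP libraries. It thus passed the filter only through the GAFCP libraries, where it was high, and it is counted among the 11 and in the median. The class I genes are near-identical relatives, and how reads were divided among them was not examined. The ratio of Tap1 to B2m was 0.0420 and 0.0396 in the GAFCP libraries, against 0.0223, 0.0234, 0.0202 and 0.0227 in the controls.

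Among genes of peptide supply, all 6 genes of the immunoproteasome and its PA28 activator were higher (median log2 change 1.25), led by the catalytic subunits Psmb9 (2.03), Psmb8 (1.94) and Psmb10 (1.58), with the activator genes Psme2 at 0.92 and Psme1 at 0.89. Pomp, which encodes a proteasome assembly factor, had the smallest log2 change of the list at 0.32. For all tested genes the shares called were 19.0% higher and 28.5% lower. Of 14 constitutive 20S subunits 9 were higher and 0 lower (median 0.13), with Psma5 at 0.27, Psmb3 at 0.20, Psma2 at 0.17 and Psmb2 at 0.15. The higher count was 4 without GAFCP library 1 and 2 without GAFCP library 2, and 2 subunits were lower with quantile normalization. Of 8 other peptidases that trim or destroy cytosolic or endosomal peptides 4 were higher and 0 lower (median 0.14), namely Lap3, the leucine aminopeptidase (0.81), Thop1 (0.31), Npepps (0.19) and Prep (0.18). The count was 2 without control library 1, control library 4 or either GAFCP library. Erap1, at 1.11, had a larger log2 change than each of these 8.

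Other genes of protein folding in the endoplasmic reticulum had calls in both directions, as did all tested genes (19.0% higher and 28.5% lower). Of 17 tested glycoprotein folding genes 5 were higher and 5 lower, with a median log2 change of 0.11, and with median-of-ratios scaling 10 were higher. The chaperone cofactor Dnajb11 (0.40) and Creld2 (0.35) were among the higher, and Herpud1, a component of endoplasmic reticulum-associated degradation (-0.49), among the lower. Without control library 2 there were 8 higher, and without GAFCP library 1 there were 3 lower. Uggt1, the glucosyltransferase that tags misfolded glycoproteins, averaged 31.0 ± 0.273 TPM in GAFCP libraries and 28.2 ± 2.73 TPM in control libraries (SD; limma adjusted p = 0.24). Of 11 other protein disulfide isomerases tested, the family of Pdia3, 1 was higher and 5 lower (median -0.14), and with median-of-ratios scaling 2 were higher and 2 lower. They included Pdia6 (-0.24), Erp29 (-0.23) and P4hb (-0.14) on the lower side, and Tmx1 (0.15) was the higher one. The lower count was 3 without control library 2 or 4 and 2 without either GAFCP library, and Tmx1 did not pass without either GAFCP library.

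The TAP chains belong to the ABCB family of transporters. Most calls among the rest of that family were lower, as over all tested genes (28.5% lower and 19.0% higher). Of 7 others tested 1 was higher and 5 lower, with a median log2 change of -0.31. Abcb8 (-0.45), Abcb6 (-0.41) and Abcb10 (-0.29) are transporters of mitochondria or other inner membranes, and Abcb1a (0.29), a drug efflux pump, was the higher one. Abcb9, the lysosomal relative named TAPL, averaged 0.647 ± 0.178 TPM in GAFCP libraries and 1.32 ± 0.139 TPM in control libraries (SD; log2 change -0.50, limma adjusted p = 0.019). Without either GAFCP library the lower count was 2 and the higher count 0.

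Known regulators of class I genes were measured in the same libraries. Of 13 tested 7 were higher and 4 lower, with a median log2 change of 0.22, where 19.0% of all tested genes were higher and 28.5% lower. Nlrc5, the transactivator of class I and TAP1 promoters, measured 50.6 and 50.4 TPM in the GAFCP libraries, against 12.04, 11.5, 9.77 and 11.3 TPM in the controls (log2 change 2.08; limma adjusted p = 7.05e-07). The interferon response factors Irf1 and Stat2 changed by 1.94 and 1.55. The lower ones were Rfxank and Rfxap, which are parts of the RFX complex on class I and II promoters, and the interferon gamma receptor genes Ifngr1 and Ifngr2, at -0.33, -0.22, -0.37 and -0.39. The lower count was 2 without GAFCP library 1.

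**Figure D5:**
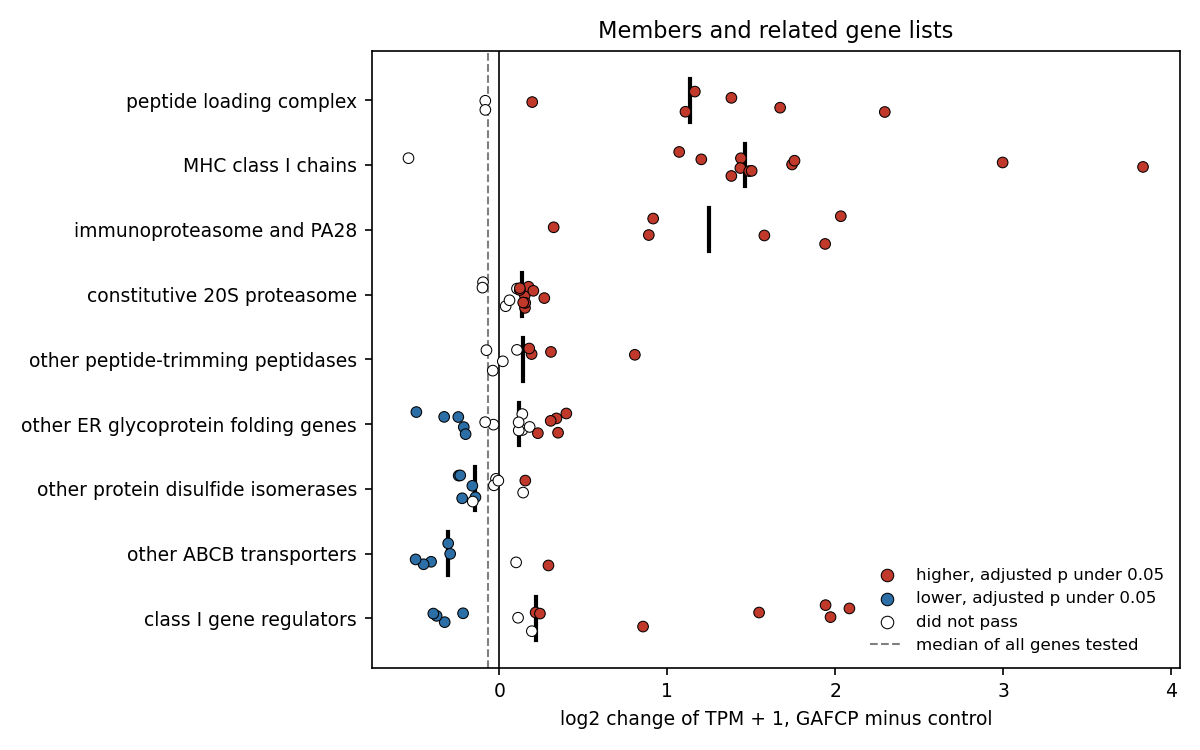
Log2 change of TPM + 1, GAFCP minus control (horizontal axis), of the members and of 8 related gene lists. Each point is a gene, red where higher, blue where lower and white where it did not pass at a limma adjusted p under 0.05, and black bars are list medians. The medians were 1.46 for class I chains, 1.25 for immunoproteasome genes, 0.11 for folding genes and -0.14 for isomerases, and genes of each list spread to both sides of its median.

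Of the 10013 tested genes that averaged 5 TPM or more, leaving out members and predicted gene names, those closest to Tap1 by Euclidean distance over the 6 libraries between log2(TPM + 1) values less their control mean were C4b (distance 0.0944), Apoe (0.111) and Csf1r (0.114). They had log2 changes of 2.26, 2.32 and 2.33. The distance takes in the GAFCP values less the control mean, so genes chosen by it have similar log2 changes by construction. The closest to Tapbp were Gmfg, Icam1 and Pla2g16, with log2 changes of 1.18, 1.13 and 1.14, and the closest to Canx were Gatad2a, Ppp2r5e and Strn3, with -0.09, -0.10 and -0.09. Apoe and Csf1r are also on the list of macrophage markers. The next protein-coding genes on either side of the members were taken by start coordinate, leaving out the members themselves. Of these, 11 were tested, and 5 were higher and 1 lower. Over all tested genes 19.0% were higher and 28.5% lower. Apart from Psmb9 and Psmb8 the log2 changes of these neighbours stayed between -0.51 for Zfp825, beside Erap1, and 0.44 for Daxx, beside Tapbp.

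The epithelial markers Krt8 and Krt18 were high in both groups, while Epcam was near the filter of 1 TPM in the GAFCP libraries. Markers of immune cells differed between the groups. Krt18 averaged 1691 TPM in GAFCP libraries and 1766 TPM in control libraries. Krt8 averaged 1544 TPM in GAFCP libraries and 2321 TPM in control libraries, and Epcam 1.54 TPM in GAFCP libraries and 12.8 TPM in control libraries. Of 10 tumor epithelium markers 2 were higher and 6 lower, where 19.0% of all tested genes were higher and 28.5% lower. Summed TPM of the 10 tumor epithelium markers ran from 6019 to 6066 in the GAFCP libraries and from 7545 to 7991 in the controls. All 10 pan-leukocyte markers were higher, and their sum ran from 347 to 359 TPM in the GAFCP libraries and from 123 to 142 TPM in the controls, with Ptprc, which encodes CD45, at 9.79 TPM on average in GAFCP libraries and 2.73 TPM in control libraries. All 14 macrophage and monocyte markers were higher, with a median log2 change of 1.92. The 8 tested T and NK cell markers were all higher. Sums over the 11 such markers in the table were 36.2 to 40.5 TPM in the GAFCP libraries and 5.55 to 7.99 TPM in the controls. In no control library was the sum high enough for all 8 to have reached 1 TPM. Markers that low in the controls can pass the filter through the GAFCP libraries alone, which favors calls as higher. Ncr1 was listed at 0 in both GAFCP libraries. Of 9 fibroblast and pericyte markers tested 6 were higher and 1 lower (sums over 10 markers of 328.8 to 329.8 TPM in the GAFCP libraries and 198 to 218 TPM in the controls). Neutrophil markers were 4 higher and 0 lower of 5 tested, and sums over 9 markers were 96.3 to 107 TPM in the GAFCP libraries and 25.7 to 29.9 TPM in the controls, and Ly6g stayed near 0. Dendritic cell sums were 18.9 to 21.7 TPM in the GAFCP libraries and 11.9 to 14.1 TPM in the controls, and of 4 markers tested 2 were higher and 1 lower. B and plasma cell sums were 6.35 to 6.83 TPM in the GAFCP libraries and 0.965 to 1.66 TPM in the controls, with 1 marker tested, which was higher. Endothelial sums overlapped, at 6.12 to 6.79 TPM in the GAFCP libraries and 5.81 to 6.85 TPM in the controls, and of 3 markers tested 1 was higher and 1 lower. No listed marker was at 0 in all libraries, and leukocytes are known to express all 8 members.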

How the data were processed

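Salmon produced the deposited TPM values from reads and mm10 (submitters' processing notes name both); the authors' annotation and Salmon version are unstated in the sources used here. TPM keeps no depth, and precision was judged by the spread between libraries. Sample titles gave groups and replicate numbers.

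A gene was tested if 2 or more libraries reached 1 TPM, which kept 13720 of 24493. The test was limma 3.58.1 (R 4.3.3) on log2(TPM + 1), two-sided, 4 residual degrees of freedom and a trended prior variance, with Benjamini-Hochberg adjustment over all genes tested; log2 changes of low genes are understated by the added 1. The procedure was tested on simulated data. It called 6515 genes, 2606 higher and 3909 lower (40.0% of calls higher), and with median-of-ratios scaling 3449 higher and 3425 lower (50.2%).

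The members and gene lists were chosen with earlier results of these data known. The text names all members, the 4 genes with the smallest p in each list, a fixed set (Psmb8, Psmb9, H2-K1, H2-D1, B2m, Nlrc5, Irf1, Hspa5, Uggt1, Abcb9, P4hb), the nearest profiles, the neighbouring genes and cell markers. The other genes within 100 kb of Tap1, H2-Q6, Psme1, Pomp, the RFX and interferon receptor genes, the ratios to Psmb9 and the motifs were chosen after their values were seen. A gene of the fixed set is not reported here. Nrd1 and Nrdc name the same gene, listed as Nrd1. Positions come from GENCODE M21 on GRCm38 and promoters from RefSeq on GRCm38.p6, which held 6 of the 8 members. Alternatives changed the pseudocount, filter, scaling, variance model, library weights, replicate block and libraries used.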

Additional observations from a re-analysis of the deposited data

How the results depend on the processing

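Tap1, Tap2, Tapbp, Tapbpl and Erap1 kept their direction and stayed called in all 19 alternatives, with log2 changes of 2.20 to 2.36, 1.58 to 1.73, 1.08 to 1.23, 1.26 to 1.44 and 0.96 to 1.17. Calr did not pass with quantile normalization (0.081), and leaving out 1 library at a time gave 0.17 to 0.22. Canx, not called in the report, passed as lower with quantile normalization (-0.15), library weights (-0.11), the replicate block (-0.14) and control libraries 1 and 2 alone (-0.14), and gave -0.12 to -0.066 with 1 library left out. Pdia3 likewise passed as lower with quantile normalization (-0.15), rescaling without the 50 most abundant genes (-0.11), library weights (-0.092) and control libraries 1 and 2 alone (-0.11), and gave -0.10 to -0.068 with 1 library left out. Direction was not reversed for any member; the cause of these differences was not tested. Over all genes tested, leaving out 1 library gave 2486 to 4638 genes called lower, with 2486 without GAFCP library 1 and 2599 without GAFCP library 2.

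Counts in the gene lists moved by over 1.5 times, or to or from 0, in 44 of 304 cases, 14 up and 30 down. With the replicate block there were 4 constitutive 20S subunits and 2 peptidases higher, 0 disulfide isomerases and 0 ABCB genes higher, and 1 class I chain lower, as with control libraries 1 and 2 alone (1). Those 2 controls also gave 2 peptidases higher and 1 lower. Control libraries 3 and 4 alone gave 0 isomerases higher and 3 lower, and 2 ABCB genes and 2 regulators lower. Median-of-ratios scaling gave 10 folding genes, 2 isomerases and 2 ABCB genes higher and 2 isomerases lower, and quantile normalization gave 8, 2 and 2 higher, and 2 constitutive subunits lower, as did rescaling without the 50 most abundant genes (2) and library weights (2). Without a mean-variance trend 2 peptidases were higher and 3 isomerases lower. Leaving out 1 library gave 2 to 9 constitutive subunits higher and 0 to 1 lower, 2 to 4 peptidases higher, 4 to 8 folding genes higher and 3 to 6 lower, 0 to 1 isomerases higher and 2 to 6 lower, 0 to 1 ABCB genes higher and 2 to 5 lower, and 2 to 4 regulators lower.

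The replicate numbers shared by the groups (1 and 2) are not stated to pair libraries, and the deviations of same-numbered libraries from their group means correlated at -0.0073 and -0.0195. The block, on libraries 1 and 2 of each group, left 1 residual degree of freedom.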
